A study of Danio rerio with 32 samples.

Results

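Liver transcripts were compared between adult male zebrafish left without food for 50 h and fed fish, using 4 arrays of each out of 32 arrays in the series. The 4 arrays titled as the 50 h fast and the 4 titled as its control were taken by those titles. All fish were males of the Tübingen strain kept at 25 °C, aged 6 to 9 months by the labels (6 to 12 months in the methods), and none of them received a toxicant. Fed fish had their last flake food 4 h before harvest. Each array carries RNA pooled from 4 or 5 livers, so the spread between arrays is that between pools and not between single animals. A further group of 4 arrays, which the labels call a 24 h fast and the methods an approximately 29 h fast, entered the same fit and is called 29 h unfed here. The arrays were Agilent zebrafish arrays read in 1 colour, where a brighter spot means more of the probe's transcript in the pool. The 8 arrays lay on 3 slides, each of which carried both groups. Within the 50 h unfed group pairs of arrays had an R2 of 0.932 to 0.958, and within the fed group of 0.949 to 0.974. No spot was saturated on the 12 arrays fitted, and the share of spots that the scanner software marked as well above background ranged between 48.9% and 56.7%. In such whole-tissue RNA, fewer cells of a type and less RNA per cell cannot be told apart.

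A liver between meals is known to turn from storing sugar and fat to releasing them. In the fed state insulin favours glycolysis, fatty acid synthesis and triglyceride storage, and as insulin falls the transcription factors of the FOXO family raise insulin-like growth factor binding proteins and restrain lipogenic enzymes. The liver also makes hepcidin, the peptide hormone that limits iron export into blood, and it answers injury and growth signals through short-lived immediate early transcripts.

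After 50 h without food, hepcidin (*hamp*, 14.1-fold), the ERK phosphatase *dusp5* (15.2-fold) and 21 of 53 measured immediate early and growth response genes (a list written after values were seen) were higher than in fed livers. Liver pyruvate kinase (*pklr*, 2.19-fold), 6 of 21 genes of fatty acid and triglyceride synthesis and 6 of 50 genes of amino acid breakdown were lower. In the same lists 3 of the 21 and 1 of the 50 were higher. Of the 9 lipid calls only *mid1ip1a*, which rose, stayed called whichever array was left out, and of the 21 immediate early calls 9 did. Over all genes tested 3.86% were called higher and 3.04% lower. Glycogen metabolism had 0 of 16 genes called.

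Of 43603 probes, 16082 were tested because their spots stood 3 or more background standard deviations above background on every array of at least 1 group, 15840 of them by the 50 h unfed or the fed arrays alone. Values are log2 of the quantile normalized median spot signal, a change is 50 h unfed minus fed with its standard error (SE), and a probe is called when its limma p, adjusted by Benjamini and Hochberg's method, is 0.05 or less. By that rule 965 probes (6.00% of those tested) were called, 515 higher (3.20%) and 450 lower (2.80%) in the unfed livers, and 3881 had an unadjusted p under 0.05. At the stricter adjusted p of 0.001 that the methods use, 3 probes (0.0187%) passed. The 4 unfed values did not overlap the 4 fed values in 907 called probes (94.0%), against 14.1% of all probes tested. The median change over all probes was -0.06. Scaling each array by its median in place of quantiles gave 408 higher and 195 lower probes. The deposited value table of 5481 probes gave 395 higher and 667 lower. Its size equals the number of genes that the paper selected as differing over the dichlorvos and feeding conditions. Its balance is therefore not comparable with that of all probes tested.

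Probes were named through their transcript accession, which gave 6711 tested genes, each read by its brightest probe. Of these genes 463 (6.90%) were called, 259 higher (3.86%) and 204 lower (3.04%) after 50 h unfed. The plot of change against signal shows calls at all signal levels, with 19 genes that rose at least 4-fold and 4 that fell as much.

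**Figure D1:**
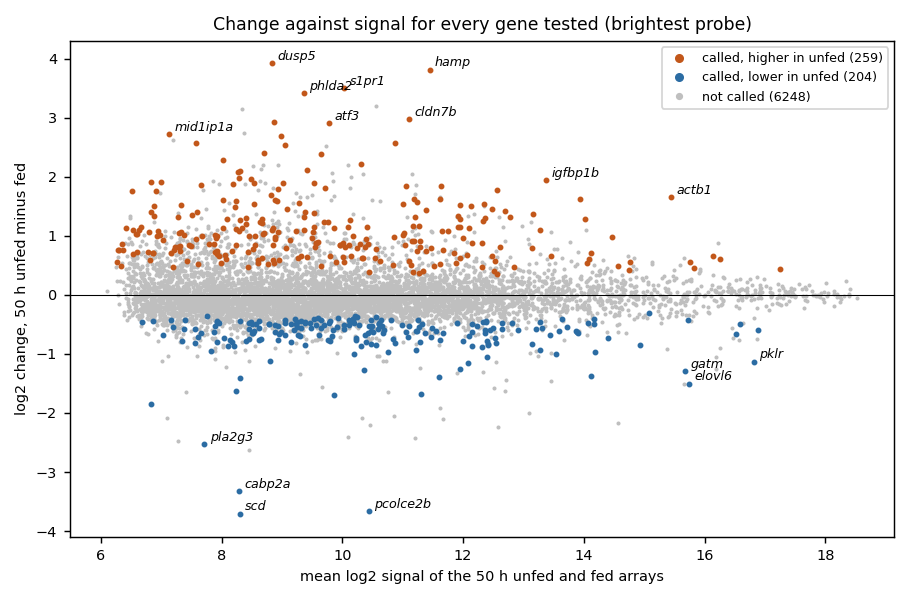
Log2 change of each of the 6711 genes (y axis, 50 h unfed minus fed) against the mean log2 signal of both groups (x axis), with 259 genes called higher in orange, 204 called lower in blue and the others in grey. Called changes reach 3.92 for *dusp5* and -3.71 for *scd*, which was well above background in 1 of its 4 unfed pools.

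Markers of several tissues were read first, because some pools stood apart. The 13 measured hepatocyte markers were bright on every array, their summed signal spanning 21.14 to 21.21 in 50 h unfed and 20.91 to 21.14 in fed livers in log2 units. The lowest unfed sum (21.138) lay just above the highest fed sum (21.135), and 10 of the 13 were on the higher side. Of the 13, *gc* was called higher (0.44) and *ahsg2* lower (-0.66). Intestine markers were bright on unfed replicates 2 and 3 and on fed replicate 4. The 2 markers given here per array were chosen after their values were seen. For *fabp2*, the intestinal fatty acid binding protein, the log2 values were 9.45, 15.15, 14.53 and 9.51 in 50 h unfed livers and 8.73, 9.67, 9.54 and 13.22 in fed livers. The villus protein *vil1* showed the same arrays apart, at 8.99, 14.31, 14.11 and 8.02 unfed and 8.66, 7.58, 8.42 and 12.60 fed. The 6 intestine markers summed to 12.41 to 16.09 in 50 h unfed and 11.53 to 14.41 in fed livers, with all 6 on the higher side, a median change of 1.68 and no call (smallest adjusted p = 0.0935). Exocrine pancreas, which lies within and beside the zebrafish liver, was measured by 20 markers that summed to 17.48 to 20.35 in 50 h unfed and 19.16 to 20.32 in fed livers, with unfed replicates 1 and 2 lowest. All 20 pancreas markers were on the lower side in unfed livers with a median change of -1.56, although none passed the threshold (smallest adjusted p = 0.0985). The 12 leukocyte markers summed to 14.72 to 15.61 in 50 h unfed and 13.61 to 14.74 in fed livers. Of the 12, 11 were on the higher side with a median change of 0.95 and 1 call, the macrophage gene *mpeg1.1* (1.16). That call was lost on leaving out any of 6 arrays (adjusted p up to 0.0730). The 7 biliary markers summed to 17.13 to 17.42 in 50 h unfed and 16.29 to 16.84 in fed livers, the ranges not overlapping. Of the biliary markers 5 were on the higher side and 2 on the lower, with a median change of 0.61 and *sox9b* lowest (-0.51). *krt18a.1*, *krt8* and *alcama* of that list were called higher. The *alcama* pools overlapped, and its call was lost on leaving out any of 6 arrays (adjusted p up to 0.131).

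The counts moved when these arrays or levels were taken into account. Without the 5 arrays on which *fabp2* and *vil1* were bright (unfed replicates 2 and 3, fed replicate 4 and 2 arrays of the 29 h group), 410 probes were called, 323 higher and 87 lower. That run kept unfed replicates 1 and 4 and fed replicates 1, 2 and 3, fewer arrays with which to detect a change. With the intestine level as a covariate 767 were called, and with the pancreas level as a covariate 186. How much of any single change comes with intestine, pancreas, leukocytes or bile duct cells was not tested.

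**Figure D2:**
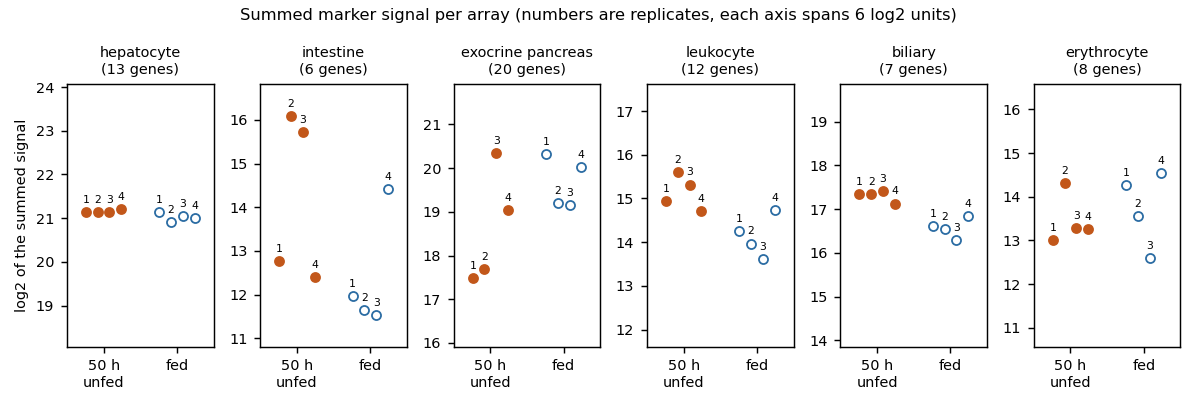
Log2 of the summed signal (y axis) of 6 marker lists on each of the 4 arrays of 50 h unfed livers (filled) and of fed livers (open), numbered by replicate. Hepatocyte sums span 20.91 to 21.21, the lowest unfed array just above the highest fed one. Intestine markers stand high on unfed replicates 2 and 3 and fed replicate 4, and pancreas markers are lowest on unfed replicates 1 and 2.

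The largest called increase was that of *dusp5*. This phosphatase, which switches off ERK kinases, measured 10.81, 10.09, 10.27 and 11.99 in 50 h unfed livers and 6.80, 6.50, 6.70 and 7.47 in fed livers, a change of 3.92 (SE 0.61, 15.2-fold, adjusted p = 0.00665 in limma). The lowest unfed pool lay 2.62 log2 units above the highest fed pool. *phlda2* measured 10.79, 10.56, 11.34 and 11.57 in unfed and 7.59, 7.12, 7.12 and 8.76 in fed livers (change 3.42, SE 0.47, adjusted p = 0.00454). *s1pr1*, a receptor for sphingosine 1-phosphate, was at 12.20, 10.65, 11.80 and 12.48 in unfed and 8.0, 8.27, 8.29 and 8.57 in fed livers (change 3.50, SE 0.41, adjusted p = 0.00214). In each of these 3 genes unfed replicate 4 was the highest of the 8 pools and no pools overlapped. They stayed called without any single array and without the arrays bright for intestine.

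*atf3*, a transcription factor induced by many stresses, measured 11.05, 10.72, 11.07 and 12.07 in unfed and 8.53, 7.77, 8.55 and 8.45 in fed livers (2.90, SE 0.31, adjusted p = 0.00174). *ccn1*, a secreted matrix protein, stood at 10.71, 9.86, 9.89 and 10.88 unfed and 7.70, 7.49, 7.62 and 7.78 fed (2.69, SE 0.29, adjusted p = 0.00174). *myca*, a Myc gene, stood at 9.46, 8.46, 9.10 and 9.62 unfed and 6.66, 6.85, 6.79 and 7.22 fed (2.28, SE 0.24, adjusted p = 0.00174). The fed pools spanned 0.78, 0.29 and 0.56 log2 units in these genes, and the groups did not overlap. At 29 h unfed the changes of these genes over the same 4 fed arrays were 2.81, 2.85 and 2.36.

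Of the other large increases, that of *hamp* is given with the iron genes and that of *mid1ip1a* with the lipid genes. *cldn7b* and *cldnb*, claudins of tight junctions, changed by 2.97 (SE 0.41) and 2.92 (SE 0.64). *hs3st1l2*, a sulfotransferase of heparan sulfate chains, measured 9.61, 7.93, 8.91 and 9.01 in unfed and 6.12, 6.29, 6.28 and 6.46 in fed livers (2.57, SE 0.30, adjusted p = 0.00214). Its change at 29 h was 1.44. *tnfrsf9a*, a receptor of the tumour necrosis factor family, changed by 2.57, *stard14* by 2.54, the tubulin *tuba1b* by 2.40 and the lipase *lipg* by 2.38. For *tuba1b*, unfed replicate 2 at 11.28 stood well above the other unfed pools. For *lipg*, fed replicate 4 at 9.99 was close to the lowest unfed pool at 10.06. Of the 15 largest increases, 13 stayed called whichever array was left out. *cldnb* lost its call without unfed replicate 1, 3 or 4 or fed replicate 2 or 3 (adjusted p up to 0.0730), and *lipg* without unfed replicate 1 or fed replicate 1, 2 or 3 (up to 0.0750).

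**Figure D3:**
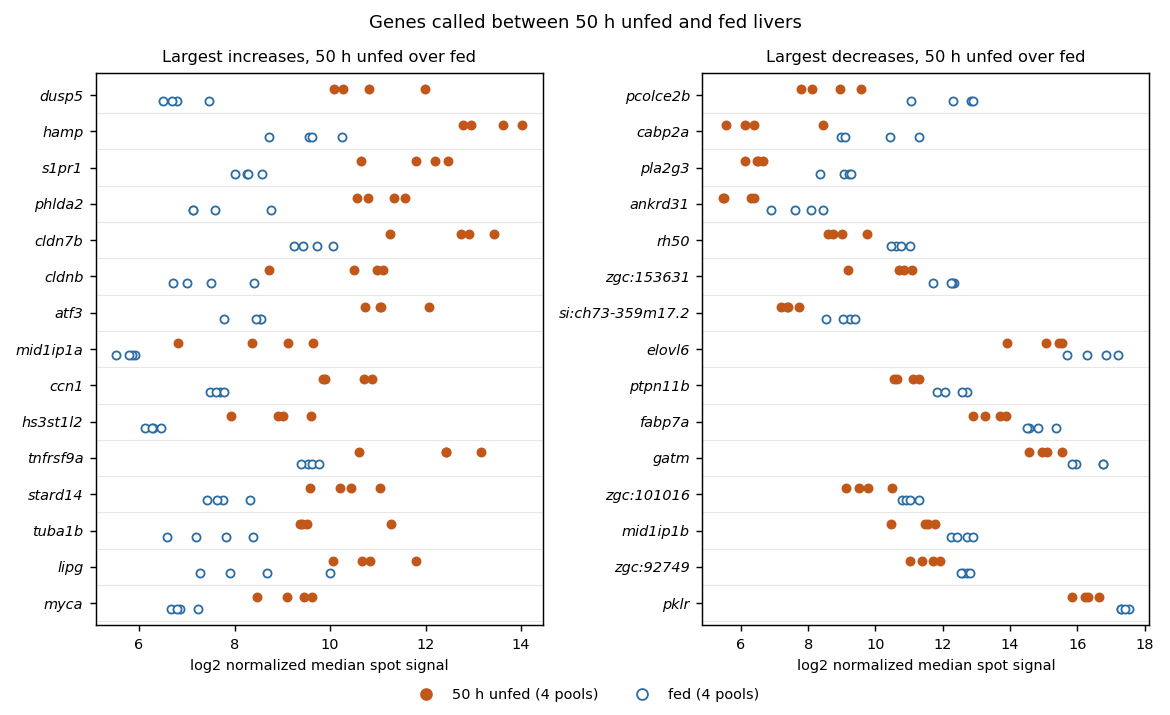
Log2 signal (x axis) of the 15 largest called increases (left) and decreases (right) with 1 point per array, 50 h unfed filled and fed open. The groups do not overlap in any row, which the choice of genes required.

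Among decreases whose pools did not overlap, that of *pcolce2b*, a helper of procollagen processing, was the largest of a named gene. It measured 9.58, 8.95, 8.12 and 7.78 in 50 h unfed livers and 12.84, 12.29, 12.89 and 11.05 in fed livers, a change of -3.66 (SE 0.56, 12.7-fold, adjusted p = 0.0065). *cabp2a*, a calcium binding protein, was at 8.44, 5.56, 6.39 and 6.12 unfed and 8.96, 9.11, 11.30 and 10.44 fed (-3.33, SE 0.66, adjusted p = 0.0164). Unfed replicate 1 at 8.44 came close to the fed pools, and the call was lost without fed replicate 3 (adjusted p = 0.0528) and without the arrays bright for intestine (adjusted p = 0.221). *pla2g3*, a secreted phospholipase A2, was at 6.13, 6.49, 6.51 and 6.66 unfed and 9.06, 9.22, 8.36 and 9.29 fed (-2.53, SE 0.27, adjusted p = 0.00174). Its brightest unfed pool lay 1.70 log2 units below the dimmest fed pool.

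*rh50*, of the family of ammonium transporting Rh glycoproteins, measured 8.75, 8.59, 9.75 and 9.00 in unfed and 10.60, 10.46, 11.01 and 10.77 in fed livers (-1.69, SE 0.24, adjusted p = 0.00513). *gatm*, the first enzyme of creatine synthesis, measured 15.10, 14.93, 15.54 and 14.55 unfed and 16.75, 16.77, 15.95 and 15.83 fed (-1.30, SE 0.28, adjusted p = 0.0239). The *gatm* pools lay closer together, and the call was lost without unfed replicate 2 or 4 or fed replicate 1 or 2 (adjusted p up to 0.0715). *fabp7a*, a fatty acid binding protein, changed by -1.38 and *ptpn11b*, the phosphatase Shp2, by -1.4. Others of the 15 were *ankrd31* (-1.85, well above background in 2 of its 4 unfed pools), *zgc:153631* (-1.69), *zgc:101016* (-1.27) and *zgc:92749* (-1.15). Of the 15 largest decreases, 7 stayed called whichever array was left out, and 5 without the arrays bright for intestine (*pcolce2b*, *pklr*, *pla2g3*, *rh50* and *si:ch73-359m17.2*). The same 5 were the ones still called with the pancreas level as a covariate, where *gatm* had an adjusted p of 0.143, *fabp7a* of 0.154 and *elovl6* of 0.237.

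An unnamed probe, A_15_P115094, singled out after its values were seen, had the smallest adjusted p of all. It measured 13.75, 14.50, 14.12 and 13.99 in 50 h unfed livers and 17.92, 17.76, 17.89 and 17.90 in fed livers (-3.78, SE 0.22, adjusted p = 1.42e-05). The fed pools lay within 0.16 of each other and at least 3.26 above every unfed pool. At 29 h its change was -2.91. Its accession matched no gene symbol in the table used.

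One gene separated the longer from the shorter time without food. *si:ch73-359m17.2* measured 7.37, 7.72, 7.41 and 7.21 in 50 h unfed livers, against 9.86, 9.43, 10.51 and 9.56 in 29 h unfed livers (change -2.42, adjusted p = 0.0064), and was the only probe called in that contrast (0.00622% of probes and 0.0149% of genes, with 1009 at an unadjusted p under 0.05). In fed livers it measured 9.26, 9.04, 8.52 and 9.38, so that 50 h unfed minus fed was -1.62 (adjusted p = 0.00585). The 29 h pools lay above the fed pools and the 50 h pools below them. Against fed livers, 924 probes (5.75%) were called at 29 h. Both contrasts use the same 4 fed arrays.

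Fatty acid and triglyceride synthesis had 21 measured genes, of which 3 rose and 6 fell, with a list median of -0.23 against -0.05 over all genes. Over all genes 3.86% were called higher and 3.04% lower. *scd*, the desaturase that makes monounsaturated fatty acids, measured 5.56, 5.22, 9.38 and 5.61 in 50 h unfed livers and 10.77, 8.80, 11.37 and 9.68 in fed livers (-3.71, SE 0.84, adjusted p = 0.0265). In 3 of the 4 unfed pools it was not well above background, and the remaining one, replicate 3, lay inside the fed range. Without that pool the change was -4.69, and the call was lost without unfed replicate 1, 2 or 4 or fed replicate 1 or 3 (adjusted p up to 0.0807). *elovl6*, which elongates palmitate, measured 15.46, 13.92, 15.54 and 15.07 unfed and 17.20, 15.69, 16.84 and 16.27 fed (-1.50, SE 0.39, adjusted p = 0.0448), a call lost on leaving out any array but fed replicate 2 (adjusted p up to 0.124). A second *elovl6* probe gave -1.71 and was not called (adjusted p = 0.0583).

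The elongation enzyme *tecrb* (-0.61) and *dgat2*, which adds the last acyl chain of triglycerides (-1.0), were also called lower. The Mid1-interacting proteins, which help acetyl-CoA carboxylase to polymerize, went in opposite directions. *mid1ip1b* measured 11.56, 10.47, 11.47 and 11.77 in unfed and 12.73, 12.23, 12.42 and 12.89 in fed livers (-1.25, SE 0.28, adjusted p = 0.0295), and *mid1ip1l* changed by -1.05. *mid1ip1a* was at 8.37, 6.82, 9.12 and 9.65 unfed and 5.91, 5.84, 5.52 and 5.80 fed (2.72, SE 0.51, adjusted p = 0.0138). It was dim in fed livers, being well above background in 3 of the 4 fed pools. Of the 9 called genes in the list, *mid1ip1a* alone stayed called whichever array was left out, and only *mid1ip1a* and *scd* stayed called without the arrays bright for intestine. With the pancreas level as a covariate *mid1ip1a* alone stayed called, and *scd* was at -2.31 (adjusted p = 0.161). *elovl6l* (1.04) and the malic enzyme *me2* (0.69, pools overlapping) were the other increases.

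In glycolysis 2 of 27 measured genes rose and 1 fell (list median 0.05), against 3.86% and 3.04% of all genes. *pklr*, the liver pyruvate kinase, measured 16.23, 15.84, 16.31 and 16.63 in 50 h unfed livers and 17.30, 17.29, 17.53 and 17.41 in fed livers (-1.13, SE 0.15, adjusted p = 0.00374). Every unfed pool was at least 0.66 below every fed pool, and the call held in every alternative run at the threshold of 0.05. *pfkfb3*, which makes the activator of phosphofructokinase, changed by 1.90 and the enolase *eno1b* by 1.4. The *pfkfb3* call was lost on leaving out any of 5 arrays (adjusted p up to 0.104), and the *eno1b* call without fed replicate 2 or 3 (up to 0.0700). The muscle-type pyruvate kinase gene *pkma* measured 8.82, 10.24, 8.90 and 8.72 unfed and 8.22, 8.09, 8.06 and 8.45 fed and was not called (adjusted p = 0.0689).

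Other carbohydrate lists held few calls, and 3.04% of all genes were called lower. In gluconeogenesis 1 of 14 fell, *fbp1b* (-0.50, adjusted p = 0.0423), a fructose bisphosphatase whose pools overlapped and whose call was lost on leaving out any of 6 of the 8 arrays (adjusted p up to 0.118). *pck2* was at -0.17 (adjusted p = 0.44). In the pentose phosphate pathway 1 of 10 fell, the transketolase *tktb*, which measured 12.85, 12.58, 12.94 and 12.84 unfed and 14.12, 13.61, 13.81 and 13.42 fed (-0.94, SE 0.15, adjusted p = 0.0071). Of its other probes, one gave -0.90 and was called (adjusted p = 0.0191) and one gave -0.17 and was not. In glycogen metabolism 0 of 16 were called. The glycogen synthase *gys2* stood at 11.89, 11.28, 11.71 and 12.08 unfed and 12.26, 12.47, 12.43 and 12.15 fed (adjusted p = 0.0712), and *ppp1r3cb*, which brings a phosphatase to glycogen, at 13.88, 12.96, 12.73 and 13.01 unfed and 11.93, 12.26, 12.34 and 12.39 fed (adjusted p = 0.0534). Neither set of pools overlapped, and both genes missed the threshold.

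**Figure D4:**
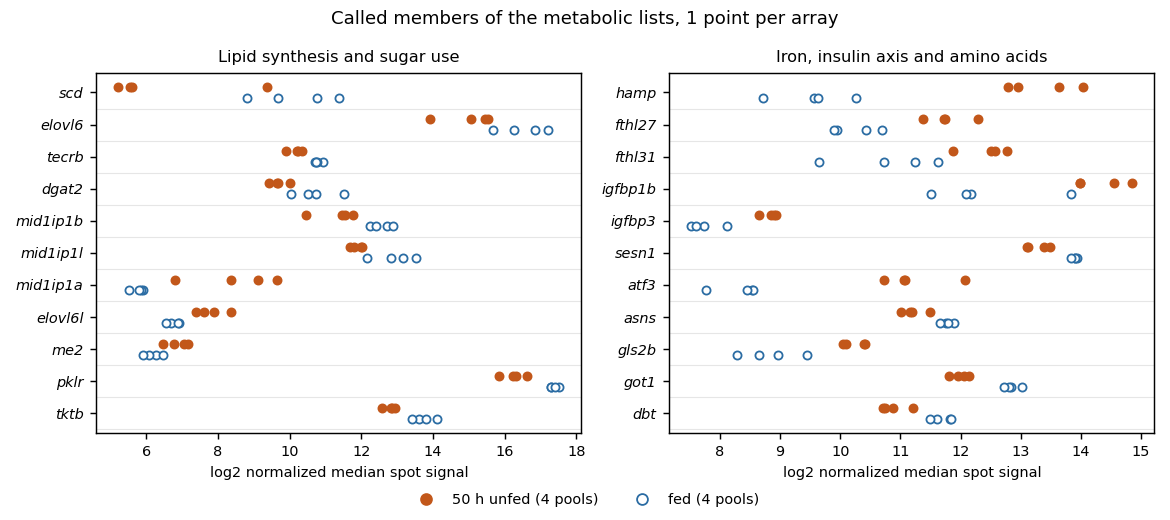
Log2 signal (x axis) of 22 called members of the metabolic lists, 1 point per array, 50 h unfed filled and fed open. *scd* has 1 unfed point (9.38) among the fed ones and *me2* overlaps, while the other rows are separate.

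Fat burning showed little. Of 22 measured genes of mitochondrial fatty acid oxidation 2 fell, *acad9* (-0.84) and *acad11* (-0.47), with a median of -0.02. Over all genes 3.04% were called lower. *acad11* lost its call on leaving out any 1 of the 8 arrays (adjusted p up to 0.118) and *acad9* without fed replicate 1, 2 or 3 (up to 0.0559). Neither stayed called without the arrays bright for intestine or with the pancreas level as a covariate. *cpt1aa*, the gate of mitochondrial fatty acid entry, measured 10.49, 10.09, 10.12 and 10.75 in unfed and 10.03, 10.15, 10.37 and 10.21 in fed livers (adjusted p = 0.569). Its pools overlapped. In peroxisomal oxidation 0 of 18 genes were called by their brightest probe, although a second probe of *phyh* was called lower (-0.50, adjusted p = 0.0329). Among 14 genes of ketone bodies, PPAR alpha targets and fasting hormones 0 were called, with *pdk2b* at -0.19. Of 13 apolipoprotein and secretion genes 0 were called by their brightest probe, although 2 other probes of *apoeb* were called higher (0.92 and 0.90).

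In the insulin, growth hormone and FOXO list 2 of 23 rose and 1 fell, against 3.86% and 3.04% of all genes. *igfbp1b*, an insulin-like growth factor binding protein, measured 13.98, 13.98, 14.85 and 14.54 in 50 h unfed livers and 13.84, 12.17, 12.09 and 11.50 in fed livers (1.94, SE 0.41, adjusted p = 0.0202). Fed replicate 1 at 13.84 was just under the lowest unfed pool. The call was lost without unfed replicate 3 (adjusted p = 0.0529), fed replicate 2 or 3 (0.0587 and 0.0655) or the arrays bright for intestine (0.175). Its paralog *igfbp1a* was at 15.81, 15.68, 16.29 and 16.83 unfed and 16.95, 15.49, 15.09 and 15.29 fed and was not called. *igfbp3* changed by 1.09, a call lost on leaving out any of 6 arrays (adjusted p up to 0.0845). *sesn1*, a sestrin that restrains TORC1, measured 13.38, 13.48, 13.10 and 13.13 unfed and 13.93, 13.89, 13.89 and 13.84 fed (-0.62, SE 0.10, adjusted p = 0.00886), with the fed pools within 0.09 of each other. *irs2a*, an insulin receptor substrate, was at -0.49 (adjusted p = 0.198).

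Amino acid breakdown was represented by 50 genes, of which 1 rose and 6 fell, and 8 were on the higher side (list median -0.20), against 43.1% on the higher side and 3.04% called lower over all genes. *got1*, the cytosolic aspartate aminotransferase, measured 12.14, 12.05, 11.95 and 11.81 in unfed and 13.02, 12.84, 12.80 and 12.73 in fed livers (-0.86, SE 0.14, adjusted p = 0.00838). *dbt*, a subunit of the branched-chain keto acid dehydrogenase, measured 10.74, 10.88, 11.22 and 10.72 unfed and 11.82, 11.60, 11.49 and 11.84 fed (-0.80, SE 0.13, adjusted p = 0.0089). In both genes the pools were apart. The other decreases were *amt* (-0.74) of glycine cleavage, *haao* (-0.61) of tryptophan breakdown, *aldh4a1* (-0.43) of proline breakdown and *mccc2* (-0.41) of leucine breakdown. The glutaminase *gls2b* was the member that rose, at 10.04, 10.39, 10.10 and 10.40 unfed and 8.65, 8.97, 9.45 and 8.29 fed (1.39, SE 0.27, adjusted p = 0.0147). *got1*, *dbt* and *gls2b* stayed called whichever array was left out, and *dbt* alone without the arrays bright for intestine. With the pancreas level as a covariate *got1* alone stayed called, with *dbt* at an adjusted p of 0.0619 and *gls2b* at 0.0719. *tat*, a tyrosine aminotransferase, was at 0.34 (adjusted p = 0.381).

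In the amino acid and integrated stress response list 2 of 17 rose, *atf3* and *atf4a* (0.54), and 1 fell, the asparagine synthetase *asns*. The shares over all genes were 3.86% called higher and 3.04% lower. *asns* measured 11.48, 11.20, 11.16 and 11.02 in unfed and 11.75, 11.90, 11.79 and 11.65 in fed livers (-0.56, SE 0.13, adjusted p = 0.0265). The *atf4a* call was lost on leaving out any of 7 arrays (adjusted p up to 0.124). The *asns* call was lost on leaving out any of 6 (up to 0.0777), while *atf3* stayed called. *trib3* was at 10.97, 10.96, 10.73 and 11.02 unfed and 10.49, 9.86, 10.33 and 10.39 fed and missed the threshold (adjusted p = 0.0593). Of 13 aminoacyl-tRNA synthetase genes 1 fell, *tars1* (-0.46), a call lost on leaving out any of 6 arrays (adjusted p up to 0.0851).

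The iron and acute phase list had 4 of 22 genes called, all higher, against 3.86% called higher over all genes. Hepcidin, *hamp*, measured 13.63, 12.79, 12.96 and 14.03 in 50 h unfed livers and 9.56, 8.72, 9.62 and 10.26 in fed livers, a change of 3.81 (SE 0.34, 14.1-fold, adjusted p = 0.000569). The lowest unfed pool was 2.53 above the highest fed pool, and at 29 h the change over fed was 3.09. Of the 6711 genes it alone (0.0149%) passed an adjusted p of 0.001, and both of its probes did. The ferritin heavy chain genes *fthl27* and *fthl31*, which encode iron storage proteins, rose as well. Other ferritin genes of the list were not called, with *fth1a* at -0.08, *fth1b* at 0.03 and *fthl28* at 1.15. *fthl27* measured 11.72, 11.38, 11.74 and 12.29 unfed and 9.94, 10.42, 9.89 and 10.70 fed (1.55, SE 0.22, adjusted p = 0.00482). *fthl31* measured 12.57, 11.87, 12.51 and 12.76 unfed and 10.73, 11.25, 9.64 and 11.62 fed (1.62, SE 0.37, adjusted p = 0.028). These ferritin genes have near-identical copies, so a probe may read more than 1 of them. *socs3a*, an inhibitor of cytokine signalling, changed by 1.09, a call lost on leaving out any of 5 arrays (adjusted p up to 0.0675). *hamp* and *fthl27* held in every alternative run at the threshold of 0.05, while *fthl31* lost its call without unfed replicate 1, 3 or 4 or fed replicate 1 or 3 (up to 0.0661).

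Of the cholesterol synthesis list 1 of 19 genes was called by its brightest probe, *nsdhl*, at 10.21, 10.34, 10.54 and 10.46 in unfed and 10.95, 11.10, 11.03 and 10.87 in fed livers (-0.60, SE 0.11, adjusted p = 0.0115). *hmgcra*, the rate-limiting reductase, measured 7.41, 8.6, 7.74 and 7.93 unfed and 10.07, 7.86, 8.6 and 8.90 fed and was not called (adjusted p = 0.348). Another of its probes gave -1.61 and was called (adjusted p = 0.0444), as was another probe of *acat2* (-1.32, adjusted p = 0.0448). In sterol uptake and SREBP regulation 0 of 13 were called. *cyp8b1.1* of bile acid synthesis fell (-0.48, SE 0.10), 1 of 4 measured genes, against 3.04% called lower over all genes.

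Proteostasis and detoxification lists were near the background share of 6.90% or below it. In the proteasome 0 of 46, in autophagy and lysosome 0 of 27 and among cytochromes P450 0 of 33 were called, with medians of -0.03, 0.04 and -0.02. Second probes were called lower for *cyp2k19* (-0.56), the chaperone genes *hspb8* (-0.82) and *ptges3a* (-0.47) and the glucocorticoid response gene *tsc22d3* (-1.18). Chaperones had 1 of 54 (*atf4a*, which 2 lists share), glutathione and antioxidant genes 1 of 39 (*maff*, 0.84), clock genes 1 of 22 (*nfil3*, 0.87) and glucocorticoid response 1 of 17 (*gadd45bb*, 1.76). The *maff* pools overlapped, and its call was lost on leaving out any of 5 arrays (adjusted p up to 0.0792). *nfil3* lost its call without fed replicate 2 or 3, and *gadd45bb* without fed replicate 1, 2 or 3. *gclc*, which starts glutathione synthesis, stood at 0.24 (adjusted p = 0.244). In ribosome biogenesis 3 of 74 rose (*myca*, *gtpbp4* and *nop53*) and 1 fell (*noc4l*), with a median of -0.14.

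Cell cycle and DNA replication genes had 0 of 41 called and a list median of 0.73, with 38 of 41 on the higher side, against 43.1% of all genes. *smc2*, a condensin subunit, measured 8.86, 8.1, 8.41 and 8.06 in unfed and 7.71, 6.90, 6.14 and 8.01 in fed livers (adjusted p = 0.0693). *pcna*, the replication clamp, measured 8.74, 8.2, 8.72 and 8.42 unfed and 8.41, 7.53, 6.82 and 8.40 fed (adjusted p = 0.174). In both, fed replicates 2 and 3 were the lowest of the 8 pools, and fed replicates 1 and 4 lay closest to the unfed pools. Leukocyte marker sums were also lowest on fed replicates 2 and 3 (13.97 and 13.61), as were intestine marker sums (11.65 and 11.53). The single intestine marker *fabp2* was lowest on fed replicate 1 instead (8.73). Whether the cell cycle values follow these levels was not tested.

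**Figure D5:**
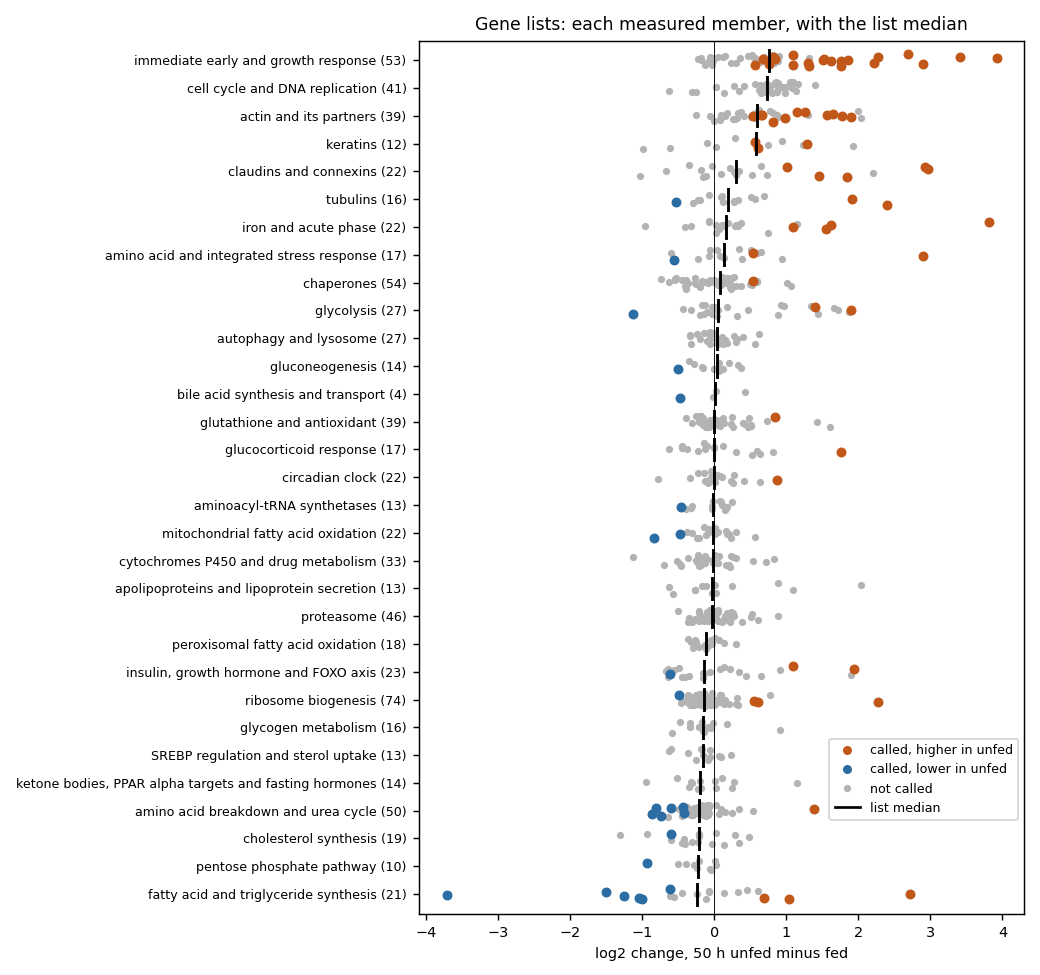
Log2 change (x axis, 50 h unfed minus fed) of every measured member of 31 gene lists, with called members in colour and the list median as a bar. Immediate early, cell cycle, actin and keratin lists have the highest medians (0.59 to 0.76), and fatty acid synthesis the lowest (-0.23). The immediate early, actin and keratin lists were written after values were seen, so their rank is a description only.

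A list of immediate early and growth response genes, written after the leading genes were seen, held 53 measured genes, of which 21 were called and all 21 rose (list median 0.76). Over all genes 3.86% were called higher. The choice of the immediate early list on the same values makes its count a description only. Beyond *dusp5*, *phlda2*, *atf3*, *ccn1* and *myca*, *klf6a*, a Krüppel-like factor, measured 12.28, 11.83, 11.67 and 12.23 in unfed and 10.34, 10.21, 10.36 and 10.59 in fed livers (1.63, SE 0.19, adjusted p = 0.00214). *fosl2*, a Fos-related factor, measured 9.44, 8.91, 8.96 and 8.89 unfed and 7.79, 7.54, 7.69 and 7.95 fed (1.31, SE 0.19, adjusted p = 0.00555). In both genes the pools were apart and the call held in every alternative run at the threshold of 0.05. *ccn2a* (2.21), the tissue factor gene *f3b* (1.85), *nr4a1* (1.75), *junba* (1.52), *egr3* (1.51), *btg2* (1.32) and *tgif1* (1.1) followed. *ier5* (0.67), *ier5l* (0.81), *phlda3* (0.76) and *zfp36l2* (0.57) rose by less. A second probe of *tgif1* gave -0.20 and was not called. Of the 21 called genes 9 stayed called whichever array was left out, 13 without the arrays bright for intestine, and 10 with the pancreas level as a covariate. *nr4a1* and *phlda3* each lost the call on leaving out any of 7 arrays (adjusted p up to 0.108 and 0.136).

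Cytoskeleton and junction families were also added after values were seen. Of 39 genes of actin and its partners 11 rose (median 0.59), of 12 keratins 3 rose (0.59), of 22 claudins and connexins 5 rose (0.31) and of 16 tubulins 2 rose and 1 fell (0.20). These counts read each gene by its brightest probe. Of the called actin genes, *actb2*, *cfl1*, *arpc1b* and *pfn2b* had other probes that were not called. The other probe gave 0.07 for *actb2* (adjusted p = 0.871), 0.45 for *cfl1* (0.204) and 0.54 for *arpc1b* (0.0994). Those of *pfn2b* had adjusted p values of 0.194 and 0.074. Other probes of *tpm4a*, *tagln2* and *msna* were called higher. The actin list contains the intestine marker *vil1* (2.04) and the leukocyte marker *lcp1* (0.99), neither called. It is therefore not fully separate from those markers. *actb1*, a cytoplasmic beta actin often taken as a reference gene, measured 16.06, 16.16, 16.72 and 16.18 in unfed and 14.73, 14.24, 13.98 and 15.56 in fed livers (1.65, SE 0.31, adjusted p = 0.0145). Fed replicate 4 was the highest fed pool and the 8 pools did not overlap. *lima1a*, an actin bundling protein, measured 10.79, 9.84, 10.58 and 10.70 unfed and 8.89, 8.35, 8.28 and 8.79 fed (1.90, SE 0.23, adjusted p = 0.00292). *cnn2*, a calponin, changed by 1.78 and *tpm4a*, a tropomyosin, by 1.57.

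*tubb6*, a beta tubulin, measured 8.11, 7.26, 7.91 and 7.89 in unfed and 5.77, 5.84, 5.78 and 6.11 in fed livers (1.92, SE 0.22, adjusted p = 0.00214). The tubulin that fell was *tuba8l2* (-0.53), a call lost on leaving out any 1 of the 8 arrays (adjusted p up to 0.111). The gap junction gene *gjb8* was at 12.98, 11.96, 12.45 and 12.84 unfed and 10.54, 10.58, 10.43 and 11.34 fed (1.84, SE 0.25, adjusted p = 0.00413). The keratin *krt18a.1* measured 15.04, 14.14, 14.63 and 14.84 unfed and 13.39, 13.29, 13.06 and 13.75 fed (1.29, SE 0.19, adjusted p = 0.00585). In these 3 rising genes no pools overlapped. Without the arrays bright for intestine the changes of *tubb6*, *gjb8* and *krt18a.1* were 2.2, 2.40 and 1.69, and *actb1*, *lima1a*, *cnn2* and *tpm4a* were at 1.8, 2.24, 2.13 and 1.99, all still called. Of the 11 called actin genes 5 stayed called without those arrays and 4 whichever array was left out, and of the 3 called keratins 1 stayed called in each case. Biliary marker sums were higher in every unfed pool, but they contain *krt18a.1* and *krt8* themselves and so are no separate measure beside these keratins. Leukocyte and intestine sums overlapped between the groups with higher maxima in unfed pools. The leukocyte overlap was narrow, the lowest unfed sum being 14.722 and the highest fed sum 14.736. The part of bile duct cells, leukocytes and intestine in these increases was not tested.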

How the data were processed

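RNA from pooled livers was hybridised to single-colour Agilent zebrafish arrays by the authors, and the deposited scanner files give the spot intensity from Agilent Feature Extraction. The gMedianSignal intensities were quantile normalized over 12 arrays and then taken to log2, after which outlier spots were left out. Probes were kept where signal minus background reached 3 background pixel standard deviations on every array of some group. limma 3.58.1 (R 4.3.3) fitted the 3 groups together, with Benjamini-Hochberg adjustment over 16082 probes. The deposited value table holds log2 values of fewer probes, quantile normalized and batch corrected by the authors, and served as an alternative. Other deposited columns (accessions, spot flags) named or filtered probes. The normexp alternative used median signals.

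Accessions were matched to RefSeq symbols, and 15163 of 43603 probes had 1 symbol. Named were the 15 largest calls in each direction with separate arrays, key or smallest-p list members and every called list member discussed. Members and lists were chosen with earlier results of these data known. The fit was tested on simulated data. Pools are the replicates, so p-values cover the spread between pools.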

Additional observations from a re-analysis of the deposited data

Results flagged for a closer look

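In 228 groups of 4 arrays, 16 (7.02%) held an array whose gap to its nearest neighbour took up more of the group's range than Dixon's critical value allows, and chance alone gives about 1 in 20. The highest 50 h unfed array stood apart for *tuba1b* (gap over range 0.916, value 11.28), *scd* (0.907, value 9.38), *fosl2* (0.882, value 9.44), *pkma* (0.881, value 10.24) and *btg2* (0.849, value 10.54). The lowest unfed array stood apart for *maff* (0.861, value 9.89), *krt8* (0.845, value 16.43) and *cyp8b1.1* (0.837, value 13.75). Among fed arrays the highest stood apart for *tpm4a* (0.986, value 10.90), *noc4l* (0.86, value 8.82), *maff* (0.846, value 9.98) and *hspb8* (0.833, value 15.34). The lowest fed array stood apart for *krt8* (0.891, value 15.73), *zgc:153631* (0.88, value 11.72), *atf3* (0.866, value 7.77) and the probe A_15_P115094 (0.852, value 17.76).

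*si:ch73-359m17.2* differed between the 50 h and 29 h unfed livers by -2.42 log2 units, the contrast in which limma called no other probe.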

How the results depend on the processing

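No named gene that was called changed sign. More probes were lower than higher with no variance moderation (362 higher, 434 lower) and without unfed replicate 4 (348 higher, 363 lower). The deposited value table also held more lower probes (395 higher, 667 lower), but over a smaller set whose balance is not comparable. The 965 calls (515 higher, 450 lower) became 603 (195 lower) with median centring, 543 (338 higher, 205 lower) with only the 8 arrays compared, 640 (333 higher) with slide as a block, 394 (303 higher, 91 lower) at 1.8-fold or more and 3 (2 higher, 1 lower) at an adjusted p of 0.001. Chosen after seeing the data, leaving out the 5 arrays bright for intestine markers gave 410 (323 higher, 87 lower), the intestine covariate 767 (291 lower) and the pancreas covariate 186 (147 higher, 39 lower). Leaving out 1 array at a time gave 333 to 1255 calls, 210 to 722 of them higher and 119 to 533 lower. The fewest came without fed replicate 3, and 371 and 475 without fed replicates 2 and 1, while 1255 came without fed replicate 4. Without unfed replicates 1, 2 and 3 there were 643, 558 and 547. The causes of these shifts were not tested.

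With the replicate number as a block 634 probes were called (359 higher, 275 lower). Arrays of the same number correlated at 0.08, -0.05, -0.16 and -0.06 in their deviations from the group means, so the numbers do not pair the pools.

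Of 101 called genes named, 41 stayed called without each single array and 28 in every alternative at the 0.05 threshold. Averaging all kept probes of a gene was not among those alternatives. By that average the change was classed as the same for 29 genes and as moved for 4. Of the 101, 100 had the same sign on all 3 slides. Where the unfed and fed pools do not overlap, every slide must give the same sign. Among all called probes 94.0% had such separate pools, so this count cannot test for an effect of slide. With 4 pools a group, the median standard error was 0.16. Median spot signals of 46 to 59 stood close to median backgrounds of 38 to 52, which limits dim genes such as *scd* and *mid1ip1a*.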
